A study of Homo sapiens with 6 samples.

Results

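The kinesin genes are the human genes for motor proteins of the kinesin superfamily, taken here as every protein-coding gene whose symbol starts with KIF followed by a digit or by C. The rule gave 42 of the 60664 genes of the count table, with symbols from GENCODE release 44 on GRCh38, and no measured value entered it. Of the 42 members, 40 had enough counts to be tested. KIF2B had 0 counts in every library and KIF12 had 0, 0 and 2 counts in the control libraries and 0, 1 and 4 in the knock-down libraries, so neither was tested. The members were sorted by known function into 15 mitotic kinesins, 17 transport kinesins and 10 others.

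RNA came from U-2 OS, a polyploid line established from a human osteosarcoma, after transfection with 30 nM of control siRNA (siCTRL, 3 libraries) or of siRNA against SFPQ (siSFPQ, 3 libraries). All libraries therefore come from a single cell line under transient transfection, and the labels name no other difference between the conditions. Counts on genes summed to between 46142855 and 47119203 in siCTRL and to between 43469321 and 45543610 in siSFPQ. Scaled to these library totals, 3 counts correspond to between 0.0637 and 0.069 CPM. All other CPM values are counts scaled to the effective library size, which is the library total times a factor for composition (TMM). This factor was between 0.971 and 0.9897 in siCTRL and between 1.019 and 1.027 in siSFPQ. SFPQ, an RNA- and DNA-binding protein of the nucleus, stood at 22381, 23139 and 21811 normalized counts (counts scaled for library size and composition) in siCTRL and at 3239, 3780 and 3108 in siSFPQ, a log2 fold change of -2.73 (SE 0.0498). Its adjusted p was 6.33e-30 by the quasi-likelihood test of edgeR (Benjamini-Hochberg adjustment), the test behind every adjusted p given here unless DESeq2 is named. Of 7 osteoblast lineage markers, 4 had a mean of at least 1 CPM, while COL1A2 had a mean of 0.961 CPM and BGLAP and SP7 were at most at 0.129 CPM. The level summed over all 7 was between 5041 and 5372 CPM in siCTRL and between 4306 and 4338 CPM in siSFPQ. Nearly all of it was COL1A1 and SPARC. None of the 3 leukocyte markers reached a mean of 1 CPM, while all 3 epithelial and all 3 neuron markers did.

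Kinesins use ATP to move along microtubules, mostly towards the plus end, and the kinesin-13 motors instead take microtubules apart at their ends. Mitotic kinesins build the spindle, move and align chromosomes and prepare the cut between daughter cells, so their transcripts belong to the genes that dividing cells raise before mitosis. Transport kinesins carry vesicles, organelles and RNA granules through the cytoplasm, and several of them, such as KIF1A, KIF5A and KIF5C, are best known from neurons, where SFPQ itself is known as a cargo of a KIF5A motor. The comparison of the conditions asks what the loss of SFPQ does to the transcripts of both kinds of motor, and the study also followed mitotic progression in these cells.

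Many genes of the cell division cycle carry a short promoter element called the cell cycle homology region, CHR, often with CCAAT boxes nearby. RefSeq promoter windows on GRCh38.p14, from 250 bases before to 50 after the start of transcription, were matched by symbol to 34 of the 42 members and searched on both strands for TTTGAA, the letters of the CHR, and for CCAAT, which can share at most 1 end base with it. TTTGAA was found in 10 of 15 mitotic kinesins (66.7%), in 1 of 12 transport kinesins with a window (KIF5B) and in 0 of 7 others. Over all 35116 windows of that length its share was 15.2%, counted per gene it was 18.2%, and over the 10485 protein-coding genes with a mean of at least 1 CPM it was 14%. CCAAT stood in 73.3% of the mitotic, 33.3% of the transport and 42.9% of the other kinesins, and in 34.6% of all windows, 39.7% of all genes with a window and 43.1% of the protein-coding genes with a mean of at least 1 CPM. In the mitotic kinesins the TTTGAA nearest the start lay between positions -55 and 25, counted from the first transcribed base. The stretches around it are printed for the best known mitotic motors and for the KIF4A and KIF4B pair, read in the direction of transcription, with the element in capitals (TTTGAA, or TTCAAA where it lies on the other strand).
KIF11 (chr10:92593075-92593134, plus strand): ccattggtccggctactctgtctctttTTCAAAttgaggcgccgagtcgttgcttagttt
KIF14 (chr1:200620718-200620777, minus strand): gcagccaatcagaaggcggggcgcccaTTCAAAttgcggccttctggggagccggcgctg
KIF18A (chr11:28108134-28108193, minus strand): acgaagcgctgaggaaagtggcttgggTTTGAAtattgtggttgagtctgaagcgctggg
KIF23 (chr15:69414267-69414326, plus strand): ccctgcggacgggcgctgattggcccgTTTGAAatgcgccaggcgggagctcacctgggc
KIFC1 (chr6:33391800-33391859, plus strand): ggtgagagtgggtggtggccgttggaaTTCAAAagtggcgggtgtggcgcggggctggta
KIF20B (chr10:89701587-89701639, plus strand): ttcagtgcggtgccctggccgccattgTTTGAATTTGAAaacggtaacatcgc
KIF4A (chrX:70290043-70290102, plus strand): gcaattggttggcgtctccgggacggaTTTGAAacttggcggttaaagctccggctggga
KIF4B (chr5:155013731-155013790, plus strand): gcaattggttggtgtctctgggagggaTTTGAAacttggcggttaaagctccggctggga

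KIF20B carries 2 copies of the element in a row, just after its start. The KIF4A and KIF4B stretches shared 57 of 60 bases. KIF4B is an intronless near-copy of KIF4A, so reads of one can be placed on the other and the values of KIF4B are uncertain. KIF2A, the mitotic kinesin with the largest fall, is shown whole for contrast, because neither TTTGAA nor CCAAT was found in its window.
KIF2A (chr5:62305956-62306255, plus strand): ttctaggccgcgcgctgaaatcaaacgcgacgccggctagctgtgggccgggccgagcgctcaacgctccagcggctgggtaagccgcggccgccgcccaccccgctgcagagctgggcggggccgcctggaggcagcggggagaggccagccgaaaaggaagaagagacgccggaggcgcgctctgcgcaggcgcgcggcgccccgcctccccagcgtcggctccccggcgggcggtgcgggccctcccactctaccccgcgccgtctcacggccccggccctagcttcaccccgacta

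Over the family, SFPQ knock-down came with small changes in both directions. At an adjusted p under 0.05, 17 kinesins were lower and 9 were higher in siSFPQ, and 14 did not pass. Of all 29022 genes tested, 22.1% were lower and 22.4% higher by this rule, and of the protein-coding genes with a mean of at least 1 CPM, where 36 of the 40 tested kinesins belong, 36.5% were lower and 31.3% higher. Past the study's added threshold of 1.5 on the log2 scale, 1 kinesin was lower (KIF26B, against 4.77% of all genes tested) and 0 were higher (against 5.54%), also at an unadjusted p and with DESeq2. The 3 siSFPQ libraries lay wholly below the 3 siCTRL libraries for 18 kinesins and wholly above for 9, where 38.9% and 34.0% of the protein-coding genes with a mean of at least 1 CPM did so. The median log2 fold change was -0.10 over the kinesins and -0.02 over those protein-coding genes. Summed over all members, kinesin transcripts made up 3616 ± 44.8 CPM (SD, n = 3) in siCTRL and 3270 ± 41.4 CPM in siSFPQ, a difference of -9.57%. With this scaling the same sum differed by -4.69% over those protein-coding genes and by -4.29% over all genes tested. The TMM factors largely set both of these values, so neither shows a fall shared by most genes. The median log2 fold change over all genes tested was 0.02.

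**Figure D1:**
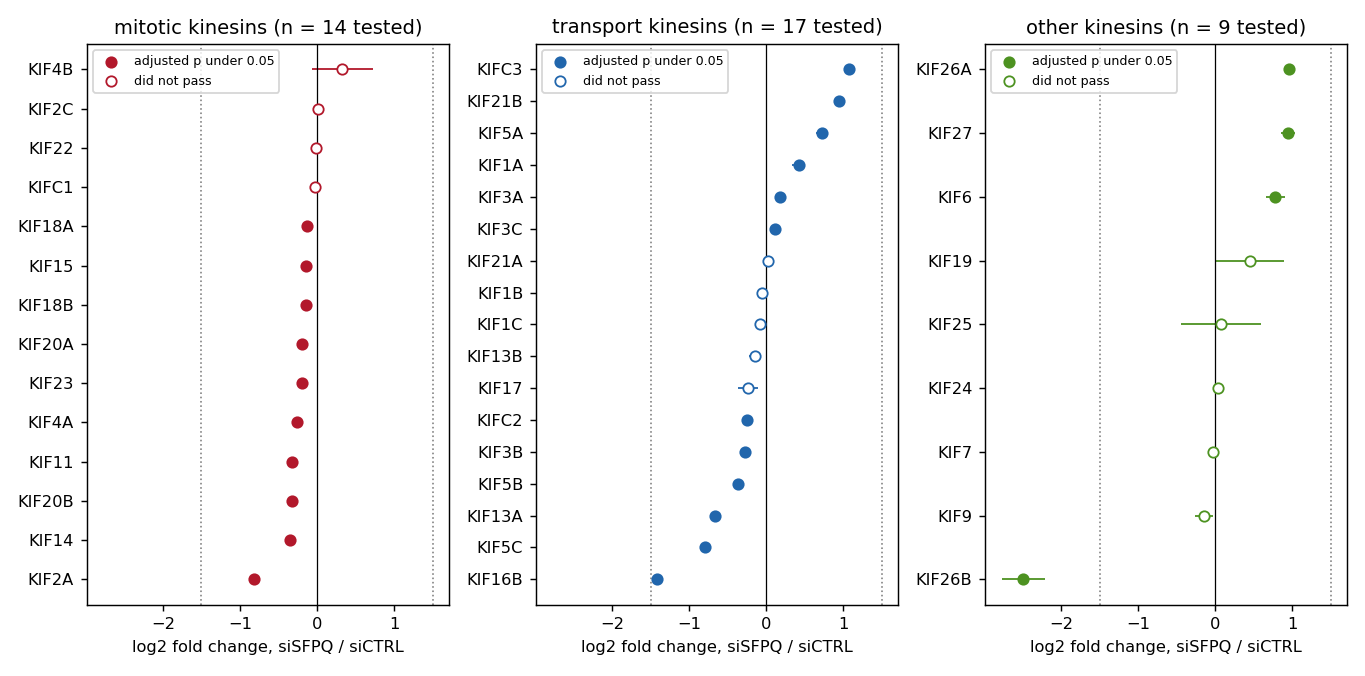
Log2 fold change (siSFPQ over siCTRL, x axis) of each tested kinesin (y axis) in the mitotic, transport and other groups, with the standard error as a bar where it is wider than the point, filled points past an adjusted p of 0.05 and dotted lines at -1.5 and 1.5. The 14 mitotic kinesins lie at or below 0 apart from KIF2C and KIF4B, which did not pass, the 17 transport kinesins run from -1.41 to 1.08, and only KIF26B lies beyond a dotted line.

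Of the 14 mitotic kinesins tested, 10 were lower in siSFPQ, 0 were higher and 4 did not pass (edgeR). Among the protein-coding genes with a mean of at least 1 CPM, where 13 of these kinesins belong, 36.5% were lower and 31.3% higher. At an unadjusted p, and with DESeq2, the number of mitotic kinesins higher was also 0. Their median log2 fold change was -0.16, and their summed level went from 1897 ± 11.7 CPM to 1652 ± 20.2 CPM. This was a difference of -13.0%, beside -4.69% for the sum over the protein-coding genes with a mean of at least 1 CPM. The scaling largely sets that last value. The median of the group against the siCTRL mean was -0.19, -0.16 and -0.17 in the 3 siSFPQ libraries and between -0.00 and 0.01 in the siCTRL libraries. In these bulk samples, fewer cells of a kind and less RNA per cell cannot be told apart.

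KIF2A (kinesin-13, chromosome 5, 62306162 to 62391025), which shortens microtubules at the spindle poles and also in interphase, fell most. It stood at 4488, 4549 and 4594 normalized counts in siCTRL and at 2471, 2745 and 2506 in siSFPQ. Every knock-down library was far below every control library, with a log2 fold change of -0.82 (SE 0.0438, adjusted p = 4.06e-17). Exons of KIF2A share 2446 bases with DIMT1 on the opposite strand, which had a mean of 799 counts and a log2 fold change of 0.10 (adjusted p = 0.239). KIF14, which acts with citron kinase at the midbody, read 4654, 4922 and 4961 normalized counts in siCTRL and 3816, 4014 and 3608 in siSFPQ. The groups did not overlap, at -0.35 (SE 0.0431, adjusted p = 3.24e-08).

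KIF11 (kinesin-5, chromosome 10, 92574105 to 92655395) slides antiparallel microtubules apart to make the spindle bipolar. It gave 10842, 11198 and 11157 normalized counts in siCTRL and 8735, 9180 and 8635 in siSFPQ. The conditions did not overlap, at -0.32 on the log2 scale (SE 0.0372, adjusted p = 6.59e-09). KIF20B, a kinesin-6 motor of late mitosis, fell to nearly the same extent, from 5852, 6250 and 6080 to 4916, 4976 and 4710 normalized counts (-0.32, SE 0.0397, adjusted p = 3.68e-08). Its relatives KIF23, the motor of the centralspindlin complex, and KIF20A, which brings the chromosomal passenger complex to the midzone, changed less. KIF23 had 13182, 13343 and 12777 normalized counts in siCTRL and 11634, 11521 and 11343 in siSFPQ. All 3 knock-down values were below all control values, at -0.19 (SE 0.0359, adjusted p = 4.68e-05), and KIF20A was at -0.19 as well.

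The chromosome-bound KIF4A was lower at -0.26, and the kinesin-8 motors KIF18B and KIF18A and the spindle motor KIF15 at -0.14, -0.13 and -0.14. These last 3 are the smallest calls of the group. With library size alone in place of TMM normalization they no longer passed (adjusted p = 0.125, 0.251 and 0.203), and KIF18A and KIF15 also failed to pass without siSFPQ replicate 1 or 3, and KIF18A without siCTRL replicate 1. KIFC1 (kinesin-14), a minus-end motor that clusters extra centrosomes, read 8123, 7913 and 7908 normalized counts in siCTRL and 7823, 7652 and 8104 in siSFPQ. The conditions overlapped, and the log2 fold change was -0.02 (95% interval -0.10 to 0.05, adjusted p = 0.681). KIF22 at -0.01 and KIF2C, the centromere kinesin-13, at 0.01 did not pass either, nor did KIF4B at 0.33 (SE 0.396), which had between 13 and 27.6 normalized counts.

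Of the 10 mitotic kinesins with TTTGAA in the promoter window 8 were lower, with a median log2 fold change of -0.17, and of the 4 tested mitotic kinesins without it 2 were lower, with a median of -0.10. Among all protein-coding genes with a window and a mean of at least 1 CPM, 45.4% of the 1468 genes with TTTGAA were lower (median -0.10) and 35.2% of the 9017 without (median -0.01). KIFC1, at -0.02, holds the element, while KIF2A, at -0.82, does not hold these letters in its window. These are descriptions of letters in a window and were not tested.

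The 17 transport kinesins held 6 higher, 6 lower and 5 not passing at an adjusted p under 0.05, with a median log2 fold change of -0.08. Both shares were close to the 31.3% higher and 36.5% lower of the protein-coding genes with a mean of at least 1 CPM. By these counts the group does not stand apart. Their summed level was 1611 ± 28.0 CPM in siCTRL and 1487 ± 22.5 CPM in siSFPQ. This was a difference of -7.69%, beside -4.69% for the sum over the protein-coding genes with a mean of at least 1 CPM. The scaling largely sets that last value. The mitotic median was lower than the transport median by 0.08, and the range of the transport values, from -1.41 to 1.08, was wider than that of the mitotic values, from -0.82 to 0.33.

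Kinesin-1 is the conventional cargo motor, with KIF5B in most cells and KIF5A and KIF5C mainly in neurons. KIF5B had 23912, 24934 and 24035 normalized counts in siCTRL and 18726, 19485 and 18343 in siSFPQ, the highest level per exon length of any kinesin in both conditions (90.5 and 70.2 CPM per kb). All knock-down libraries lay below the controls, at -0.37 (SE 0.0359, adjusted p = 1.85e-10). KIF5C (chromosome 2, 148875227 to 149026759) fell from 1443, 1583 and 1468 to 814, 855 and 926 normalized counts, at -0.79 (SE 0.0619, adjusted p = 8.54e-13). KIF5A (chromosome 12, 57546026 to 57586633) moved the other way, from 616, 566 and 528 to 944, 946 and 919 normalized counts, again without overlap, at 0.72 (SE 0.0727, adjusted p = 4.21e-10). Exons of KIF5A share 71 bases with DCTN2 on the opposite strand, which had a mean of 6288 counts and a log2 fold change of -0.12. Per exon length KIF5A made up 1.1% of the summed kinesin-1 level in siCTRL and 2.31% in siSFPQ, while KIF5B held 97.8% and 96.9%. Exon length here takes every annotated exon of a gene, 5.87 kb for KIF5B, 12.2 kb for KIF5A and 33.2 kb for KIF5C. These percentages are therefore not shares of transcript molecules.

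Kinesin-2 motors drive intraflagellar transport in cilia and carry cargo elsewhere, with KIF3A joined to KIF3B or KIF3C. KIF3A read 2505, 2775 and 2594 normalized counts in siCTRL and 3020, 3061 and 2861 in siSFPQ. It was higher in each knock-down library, at 0.18 (SE 0.0461, adjusted p = 0.0013), while its partner KIF3B was lower at -0.27 (adjusted p = 3.7e-07). KIF3C was at 0.11 (adjusted p = 0.0325), a call lost without siCTRL replicate 2 or siSFPQ replicate 2 or 3 (adjusted p between 0.07 and 0.0736). KIF17 was at -0.24 and did not pass. Per exon length, KIF3A went from 17.7% to 21.3% of the summed KIF3 level and KIF3B from 57.8% to 50.9%.

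Among the kinesin-3 motors, which move vesicles and endosomes, KIF16B (chromosome 20, 16272104 to 16573448), a motor of early endosomes, had the largest fall of the transport group. It read 1209, 1321 and 1193 normalized counts in siCTRL and 463, 503 and 431 in siSFPQ. The knock-down libraries held less than the lowest control by a wide margin, at -1.41 (SE 0.0727, adjusted p = 1.5e-17), just short of the fold threshold. KIF13A, which positions recycling endosomes, went from 3360, 3470 and 3271 to 2061, 2249 and 2101 normalized counts, with no overlap, at -0.66 (SE 0.0455, adjusted p = 4.13e-14). KIF1A, a neuronal vesicle motor, was higher at 0.42 (adjusted p = 0.000104), and KIF13B (-0.15), KIF1B (-0.06) and KIF1C (-0.08) did not pass.

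The largest rise among all kinesins was that of KIFC3 (kinesin-14, chromosome 16, 57758217 to 57863053), a minus-end motor with roles at the Golgi and at cell junctions. It stood at 2955, 3016 and 3101 normalized counts in siCTRL and at 6676, 6382 and 6098 in siSFPQ. Every knock-down library was far above every control library, and the fold change was 2.11 (1.08 on the log2 scale, SE 0.0419, adjusted p = 6.64e-21). KIF21B, a kinesin-4 motor that also restrains microtubule growth, rose from 921, 879 and 908 to 1796, 1767 and 1631 normalized counts, at 0.94 (SE 0.0575, adjusted p = 1.56e-15). Its close relative KIF21A was at 0.02 and did not pass, and KIFC2 was lower at -0.25.

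**Figure D2:**
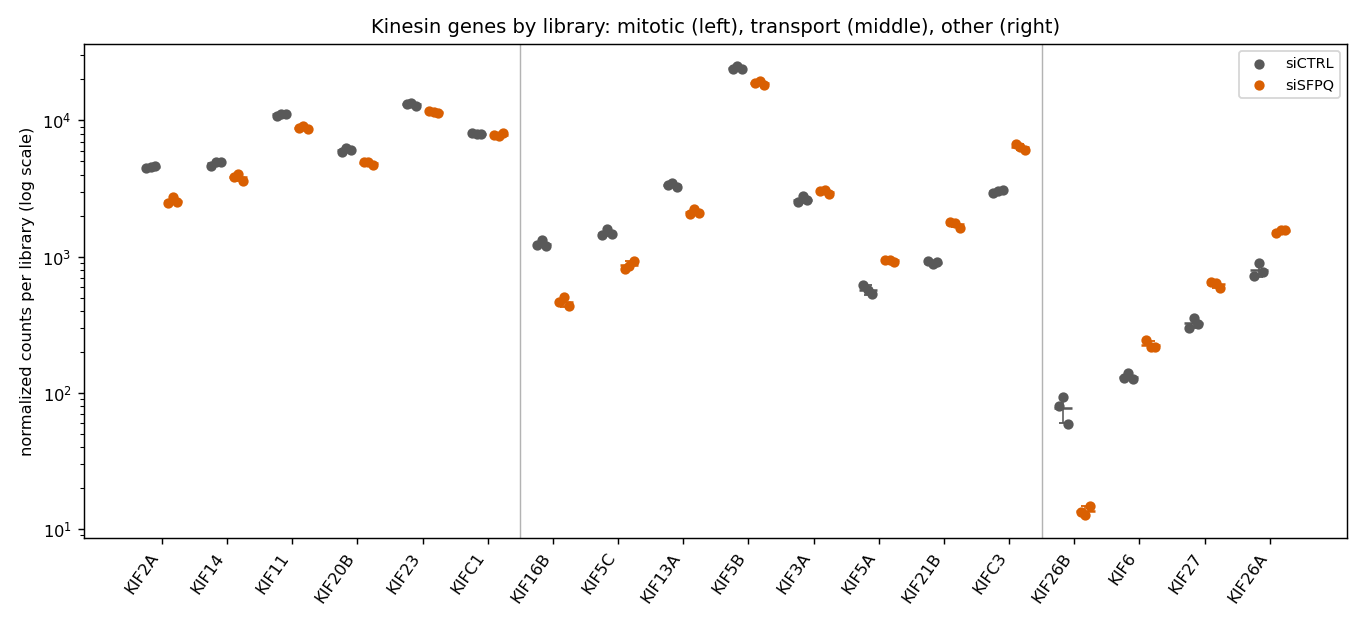
Normalized counts in each library (y axis, log scale) of 18 kinesins, with siCTRL in grey and siSFPQ in orange, the 3 libraries as points, the mean as a short line and the SD as a bar. The conditions separate for every gene drawn other than KIFC1, with the widest gaps for KIF26B and KIF16B, which are lower in siSFPQ, and for KIFC3, which is higher.

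The other kinesins have roles in cilia, signalling or no settled role, and most were low. Of the 9 tested, 3 were higher, 1 was lower and 5 did not pass. Among the protein-coding genes with a mean of at least 1 CPM, a level that 6 of the 9 reached, 31.3% were higher and 36.5% lower. The summed level of the other kinesins was 108 ± 5.4 CPM in siCTRL and 131 ± 3.0 CPM in siSFPQ. KIF26B (kinesin-11, chromosome 1, 245154985 to 245709432), a member without motor activity that acts in cell adhesion and Wnt signalling, fell most of all kinesins. It had 80.2, 93.0 and 59.2 normalized counts in siCTRL and 13.4, 12.7 and 14.8 in siSFPQ. The conditions were well apart at a low level, with a mean of 0.995 CPM over the libraries, at -2.49 (SE 0.283, adjusted p = 4.76e-09, between -2.66 and -2.34 with each library left out). KIF26A, its paralog, rose from 716, 891 and 772 to 1501, 1556 and 1579 normalized counts, at 0.96 (SE 0.0662, adjusted p = 3.23e-14).

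KIF27, a relative of the Hedgehog pathway motor KIF7, went from 301, 354 and 321 to 652, 637 and 585 normalized counts, at 0.94 (SE 0.0881, adjusted p = 6.35e-11), with no overlap. KIF6, a kinesin-9 member linked to motile cilia, had 128, 139 and 127 normalized counts in siCTRL and 242, 217 and 218 in siSFPQ. It was higher in all knock-down libraries, at 0.78 (SE 0.127, adjusted p = 4.11e-06). KIF7 at -0.03, KIF24 at 0.04 and KIF9 at -0.15 did not pass, nor did KIF25 at 0.07 (SE 0.516) and KIF19 at 0.45 (SE 0.443), whose levels were under 1 CPM.

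Gene span, from gene start to gene end with introns, ranged from 4.39 kb (KIF4B) to 554 kb (KIF26B) among the tested members, with medians of 51.7 kb for mitotic, 57.4 kb for transport and 55.5 kb for other kinesins. Across the 40 tested kinesins, span and log2 fold change had a Spearman rho of -0.25 and, with span on the log10 scale, a Pearson r of -0.33. These are correlations across genes of the same libraries, and genes are not independent replicates. Over the 12958 protein-coding genes with a mean of at least 1 CPM rho was -0.30. Within the role groups rho was -0.50 for the 14 mitotic, -0.33 for the 17 transport and -0.32 for the 9 other kinesins. With exon length in place of span it was -0.63, 0.25 and 0.18, and with the longest single intron -0.20, -0.13 and 0.00. The mitotic values for span and exon length include KIF4B, whose counts are uncertain. For the 36 kinesins with a mean of at least 1 CPM rho with span was -0.13 and r was -0.09. Without KIF26B rho was -0.19, and without KIF6 it was -0.33.

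Of the 12 kinesins spanning at least 100 kb, 6 were lower and 3 were higher, and of the 28 shorter ones 11 were lower and 6 higher. In the protein-coding genes with a mean of at least 1 CPM the share lower was 63.9% from 100 kb and 28.9% below, and it went through 24.1%, 30.1%, 38.1%, 54.8% and 77.6% over the 5 span classes divided at 25, 50, 100 and 200 kb. The 4 kinesins of at least 200 kb were KIF26B, KIF6 (395 kb), KIF16B (301 kb) and KIF13A (228 kb), and 3 of them were lower. KIF6, the second longest, was higher, above 97.5% of the protein-coding genes of its span class, which had a median of -0.82. KIFC3 (105 kb) lay above 98.0% of its class. At the low end, KIF2A (84.9 kb) was above only 6.77% of its class and KIF5B (47.4 kb) above 12.4%.

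Set against the median of its own span class, 12 of 14 mitotic kinesins lay below and 2 above, with a median difference of -0.15. The transport kinesins lay above in 10 cases and below in 7, with a median difference of 0.13, and the other kinesins above in 6 and below in 2. The mitotic differences ran from -0.79 for KIF2A to 0.27 for KIF4B, and KIF15, at 0.06, was the other mitotic kinesin above its class median. No test was made of these counts.

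**Figure D3:**
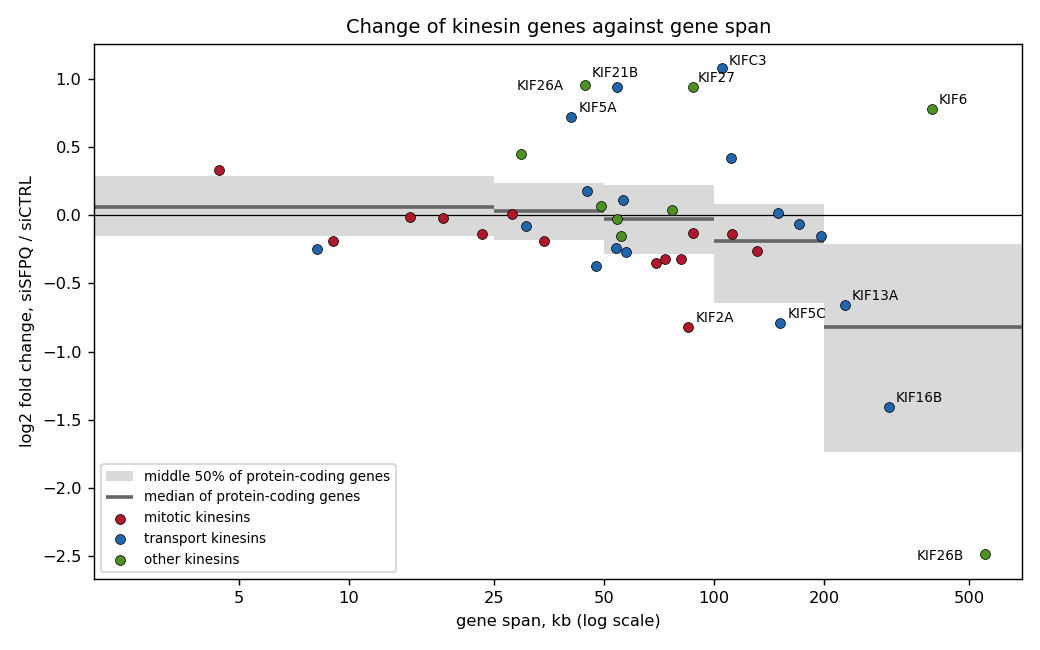
Log2 fold change (siSFPQ over siCTRL, y axis) of each tested kinesin against its gene span in kb (x axis, log scale), coloured by role, over the median (dark line) and middle 50% (grey) of the protein-coding genes with a mean of at least 1 CPM in each of 5 span classes. The class median drops from 0.06 in the shortest to -0.82 in the longest class. KIF26B, KIF16B and KIF13A lie low among the longest kinesins and KIF6 lies far above, and the mitotic kinesins sit mostly under the class medians.

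Several kinesins moved apart from their closest relative. The pairs were chosen after their values were seen, and no exact permutation test of 3 libraries against 3 can give a p under 0.1, so the log2 ratios within each library are given as a description. KIF26A over KIF26B was 3.15, 3.25 and 3.69 in siCTRL and 6.75, 6.88 and 6.69 in siSFPQ, a difference of 3.41. KIF5A over KIF5C was -1.23, -1.48 and -1.47 in siCTRL and 0.21, 0.15 and -0.01 in siSFPQ, a difference of 1.51 that brought both neuronal kinesin-1 genes to nearly the same count. The ratio changed by 1.33 for KIFC3 over KIFC2, 1.08 for KIF5A over KIF5B, 0.91 for KIF21B over KIF21A, 0.83 for KIF2C over KIF2A, 0.51 for KIF13B over KIF13A, 0.47 for KIF1A over KIF1B and 0.45 for KIF3A over KIF3B. None of these overlapped between the conditions. KIF18B over KIF18A, with a change of -0.01, did overlap. In each of these chosen pairs without overlap other than KIFC3 (105 kb) over KIFC2 (8.16 kb), the gene with the higher log2 fold change had the shorter span. KIF2C (0.01) and KIF13B (-0.15) did not rise themselves, and their relatives KIF2A and KIF13A fell. Relatives outside this choice went the other way on span, the longer gene having the higher log2 fold change. They were KIF27 (87.4 kb, 0.94) beside KIF7 (54.3 kb, -0.03) and KIF6 (395 kb, 0.78) beside KIF9 (55.5 kb, -0.15). KIF1A (111 kb, 0.42) beside KIF1C (30.5 kb, -0.08) was another. The pairs therefore give no rule on span.

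Genes that work with the kinesins were read from 5 lists, whose counts stand beside the 36.5% lower and 31.3% higher of the protein-coding genes with a mean of at least 1 CPM. Of 27 mitotic partners (spindle, kinetochore and midzone proteins), 20 were lower, 1 was higher and 6 did not pass. Their median log2 fold change was -0.21, close to that of the mitotic kinesins. PRC1 and NUSAP1, which did not pass, had means of only 0.886 and 0.533 CPM, under the limit of that background. SPC25, a kinetochore protein of the NDC80 complex, fell most (3068, 3027 and 3139 to 1914, 1994 and 2012 normalized counts, at -0.64, adjusted p = 4.65e-14), and RACGAP1, which binds KIF23 in centralspindlin, was the one that rose (0.12, adjusted p = 0.00824). CENPE, the kinetochore kinesin whose symbol does not start with KIF, went from 7577, 8100 and 7563 to 5285, 6126 and 5325 normalized counts, at -0.47 (SE 0.0457, adjusted p = 1.29e-10). TTTGAA stood in the windows of 16 of 23 mitotic partners (69.6%).

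Of 20 cell cycle markers, 14 were lower, 1 was higher and 5 did not pass, against the same 36.5% and 31.3%, with a median of -0.19 and summed levels between 5059 and 5237 CPM in siCTRL and between 4685 and 4736 CPM in siSFPQ. MKI67, a marker of cycling cells, was at -0.43 and CDC25C, a phosphatase for entry into mitosis, at -0.49. CCNB1, cyclin B of mitosis, was at -0.06 and did not pass (adjusted p = 0.207). CDKN1A, the p21 inhibitor of cyclin-dependent kinases, was the gene that rose, from 11602, 11137 and 11704 to 18913, 16599 and 19888 normalized counts, at 0.69 (SE 0.0452, adjusted p = 1.08e-14). The part of the cell cycle in the lower mitotic kinesins was not tested.

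The lists for transport held genes called in both directions, in shares not far from the 31.3% higher and 36.5% lower of the protein-coding genes, so the counts set none of them apart. Of 18 kinesin adaptors 8 were higher and 6 lower, with a median of 0.10. KLC3, a kinesin light chain, rose most, from 64.1, 64.0 and 66.2 to 142, 134 and 168 normalized counts (1.19, adjusted p = 2.51e-07), and KIFAP3, the subunit that binds the KIF3 motors, fell most, from 989, 1051 and 1121 to 532, 583 and 562 (-0.91, adjusted p = 8.53e-13). Of 28 dynein and dynactin genes, which serve the opposite direction of transport, 9 were higher and 12 lower, with a median of -0.05. ACTR1B of dynactin was at 0.51 and the dynein adaptor HOOK3 at -0.68, while HOOK1, named after its value was seen, was at -2.54 with a mean of only 0.106 CPM. Of 23 intraflagellar transport genes, 6 were higher and 11 lower, with a median of -0.11, between DYNC2I1 at 1.04 and IFT80 at -0.91. The number lower in this list was 6 without siSFPQ replicate 1, and also 6 without siSFPQ replicate 3.

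**Figure D4:**
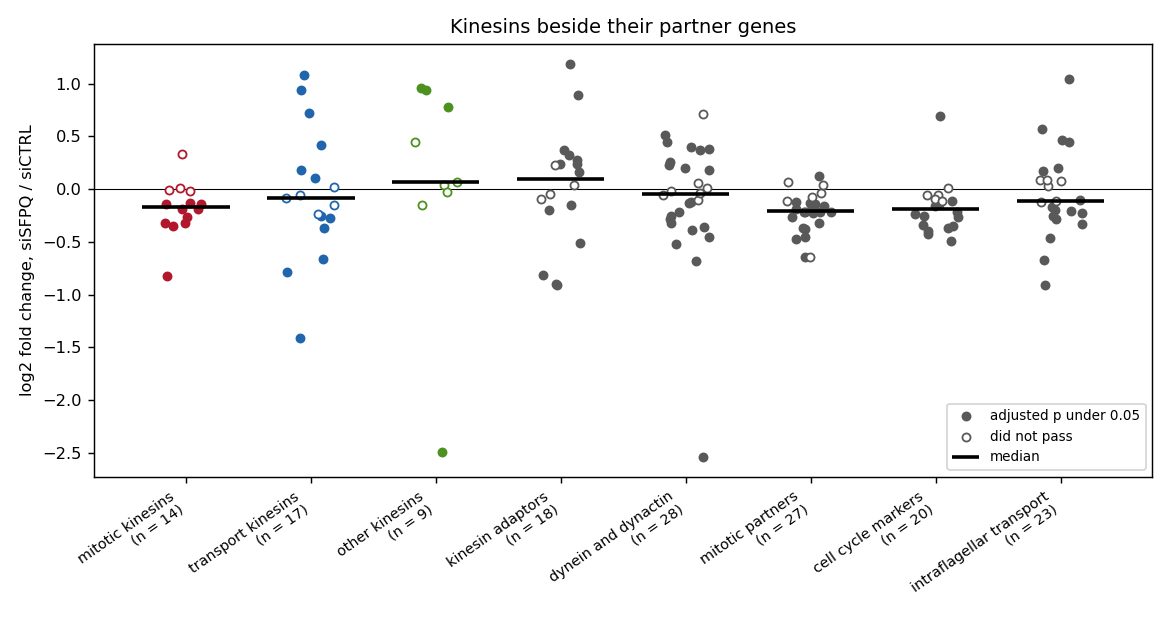
Log2 fold change (siSFPQ over siCTRL, y axis) of each tested gene of the 3 kinesin groups and the 5 partner lists (x axis, horizontal jitter without meaning), with filled points past an adjusted p of 0.05 and a line at each median. The mitotic kinesins, mitotic partners and cell cycle markers cluster just under 0, with medians of -0.16, -0.21 and -0.19, while the transport groups spread to both sides.

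Markers of other cell types also differed between the conditions. The summed level of 3 epithelial markers was between 133 and 139 CPM in siCTRL and between 324 and 349 CPM in siSFPQ, nearly all of it KRT18. That of the 3 neuron markers went from between 25.9 and 29.5 CPM to between 5.41 and 5.66 CPM. MAP2 and RBFOX3 fell, while SYN1 rose from between 1.09 and 1.51 CPM to between 2.25 and 2.73 CPM. The sum of the 3 endothelial markers, 1 of them over 1 CPM, went from between 4.25 and 5.49 CPM to between 6.53 and 7.33 CPM. The sum of the 3 leukocyte markers went from between 0.569 and 0.855 CPM to between 0.108 and 0.321 CPM. Their part in the changes of the kinesins was not tested. Exons of 20 members share bases with another annotated gene, 8 of them with a protein-coding gene on the opposite strand, and the strand setting of the counting is not given in the sources used here. Beside KIF2A and KIF5A, the larger of these overlaps are KIFC2 with FOXH1 (791 bases) and KIF7 with TICRR (589 bases), and the values of these members are uncertain to that extent.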

How the data were processed

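The authors prepared stranded mRNA libraries of U-2 OS cells, 3 per condition, sequenced them from both ends, checked them with FastQC, aligned them with STAR 2.7.9a (Ensembl GRCh38) and deposited the read counts of each gene without normalization. Trimming and the strand setting of the counting are not given in the sources used here. The study calls the replicates biological but does not say what separates them, so p-values measure the spread between these samples, which may be technical in part.

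Genes with at least 10 counts in total entered the quasi-likelihood test of edgeR 4.0.16 (R 4.3.3) with TMM normalization and no covariate, and p-values were adjusted over all 29022 genes (Benjamini-Hochberg). The study used DESeq2 with the thresholds kept here (adjusted p of 0.05, log2 fold change of 1.5), and DESeq2 1.42.0 was an alternative. Normalized counts are counts over the effective library size, brought to their geometric mean over libraries. CPM values also use the effective library size, apart from the limit of 3 counts, which uses the library total. SE is the standard error of a log2 fold change, from the fold change and the test statistic. The limit of 3 counts covers counting error only. The test was checked on simulated counts, and replicate libraries differed by more than sampling noise.

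The members, role groups, partner lists and span classes were chosen with earlier results of these data known. Values in every library are given for kinesins past both thresholds, for up to 3 rises and 3 falls per role group whose mean reached 1 CPM, and for KIF11, KIF23, KIFC1, KIF5B, KIF3A and KIF26B. In each partner list the largest rise and fall were named, and CENPE. KIF20B's library values, MKI67, CCNB1 and the overlapping genes were added after their values were seen. Spans, exon lengths and gene classes are those of GENCODE release 44 (GRCh38), which held 60463 of 60664 identifiers. Alternatives were other count filters, scalings and thresholds, DESeq2, a replicate block, protein-coding genes alone, other role groups, length measures and span limits, and leaving out each library.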

Additional observations from a re-analysis of the deposited data

How the results depend on the processing

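No called kinesin or role group median changed direction under the alternatives run. Of the kinesins that did not pass, KIF1B, KIF7, KIF21A, KIF22, KIF25, KIF2C and KIFC1, all near 0, changed sign in at least 1 fit. In all, 22 of the 26 called kinesins kept their direction and call in all 13 fits. The exceptions were KIF15, KIF18A, KIF18B and KIF3C, all changed by little, and of the 14 kinesins that did not pass KIF13B and KIF1C passed in 4 fits each. With library size alone, which moved the median of all genes tested from 0.02 to 0.08, the median was -0.10 for mitotic and -0.02 for transport kinesins, 2 mitotic partners were higher and 5 intraflagellar transport genes were lower. With a log2 fold change threshold of 1, 2 kinesins were lower and 1 higher, and with 0.58, 5 were lower and 6 higher. Without KIF26B, an alternative chosen after seeing the data, 0 were lower past 1.5. With other role groups the mitotic median was -0.14. Among members with a mean of at least 1 CPM it was -0.19, that of the other kinesins 0.41, and rho with span -0.13. With the longest single intron in place of span rho was -0.05 (0.03 without KIF26B and 0.02 among members whose mean reached 1 CPM), with exon length it was 0.04, and with a split at 200 kb 75.0% of the longer kinesins were lower. With each library left out, the mitotic median lay between -0.21 and -0.14 and the intraflagellar transport genes lower between 6 and 10. The causes were not tested.

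Libraries of the same replicate number showed almost no shared deviation over all genes tested (correlations 0.00191, 0.0121 and 0.0153). Those of different numbers had correlations between -0.013 and 0.000439. No clear pairing was seen, but values this small cannot exclude one. With the replicate number as a block, 19 kinesins were lower and 9 higher, the medians were -0.16, -0.08 and 0.09, and rho was -0.26. KIF2B, KIF12 and the 4 tested kinesins under 1 CPM rest on few counts.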
